A study of Mus musculus with 4 samples.

Results

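Prevotella is described here in mouse stool, as the 13 rows of the authors' bacterial composition table whose genus is Prevotella and as the sum of these rows in each library. The table holds 488 rows, and 10 of the 13 Prevotella rows were above 0 in at least 1 library. Stool of wild-type C57BL6/J mice aged 8 to 12 weeks, on standard chow and kept free of specified pathogens, was profiled by 16S rRNA gene sequencing, which counts amplified copies of a bacterial marker gene. Groups were given vancomycin, ampicillin, a mix of these with neomycin and metronidazole, neomycin alone, metronidazole alone, or phosphate-buffered saline (PBS). Each antibiotic dose held 2.5 mg in 100 µl of PBS, given 2 times a day for 3 days with a last dose on day 4, and stool of day 0 (before treatment) and day 4 was sequenced. Each of the 5 antibiotic treatments and PBS was given by 3 routes, by mouth (oral), into the peritoneum (intraperitoneal) or into a vein (intravenous), so the study asks how both the drug and its route change the stool bacteria.

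Prevotella are Gram-negative anaerobic bacteria of the order Bacteroidales that live in the gut of animals on plant-rich diets, and in the mouth. Gut species break down plant polysaccharides such as xylans and release succinate and acetate. Muribaculaceae are the family of the same order that is typical of the mouse gut, and share with Prevotella the habit of fermenting complex carbohydrates. Vancomycin and ampicillin block the building of the bacterial cell wall, neomycin acts on bacterial ribosomes, and metronidazole is a prodrug that anaerobic bacteria reduce to a form that damages DNA. The outer membrane of Gram-negative bacteria generally keeps vancomycin out, and aminoglycosides such as neomycin need a respiratory chain to enter a cell.

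All levels are percent of a library's reads, so they are shares of the bacteria seen and do not show how many Prevotella cells a stool held. Fewer Prevotella and more of other bacteria cannot be told apart in such a share. Day 4 gave 91 libraries, 79 in a sequencing run named ok122 and 12 in a run named SB1, and day 0 gave 107 libraries, all in ok122. The depth recovered from the scaled values was 30 to 153407 reads (median 23566) at day 4, with 4 libraries under 1000, and 2 to 41082 reads (median 7289) at day 0, with 24 under 1000. A pair of intravenous ampicillin libraries and a pair of intraperitoneal vancomycin libraries did not differ beyond sampling noise (chi-square over degrees of freedom 1.29 and 1.06, chi-square test p = 0.153 and 0.363) and each pair was counted as 1 sample, which leaves 89 day 4 samples. The mouse was read from the sample name in the sheets, and samples of a group were taken as separate mice. Litters and cages are not given.

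A single species row carried nearly all of the genus at day 0. The row Prevotella sp902776665 was above 0 in 197 of 198 libraries. It held 99.9% of all Prevotella at day 0, 96.6% in the day 4 libraries of run ok122 and 71.8% in those of run SB1. These shares come from percents summed over libraries, so a library of few reads weighs as much as a deep one. In day 4 libraries of 30, 65 and 70 reads other Prevotella rows held 26.7%, 24.6% and 10% of reads. In libraries of at least 1000 reads no other row exceeded 0.462%. The name sp902776665 is a placeholder of the taxonomy for a species known from genome sequences, and no function is annotated to it in the files. The row Prevotella sp004792655 was above 0 in 12 of 12 libraries of run SB1, and its cells were empty in the other 186 libraries, so presence of this row and sequencing run cannot be told apart. The row Prevotella histicola was above 0 in 13 libraries and Prevotella melaninogenica in 5, both species first known from the human mouth. Prevotella salivae (3 libraries), Prevotella jejuni (2 libraries), Prevotella oris (1 library) and Prevotella pallens (1 library) were rarer still. Prevotella copri, a species of the human gut, was above 0 in 1 library at 0.05%. An unclassified Prevotella row was above 0 in 8 libraries. Prevotella bivia, Prevotella sp003447235 and a further row with no species name were at 0 in all libraries. Of the 13 rows, only sp902776665 was found in at least 20% of day 4 samples and could be tested on its own.

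Before treatment Prevotella was the leading genus of the stool. It made up 27.9% ± 10.5 of reads over 107 day 0 libraries (SD), between 5.41% and 58.6%, and ranked first among genera in 87 of them. Over the 83 day 0 libraries of at least 1000 reads it averaged 26.1% ± 9.91 (SD), against 34.0% ± 10.6 (SD) in the 24 shallower ones. The family Muribaculaceae, summed over its genera, averaged 48.9% ± 13.8 (SD, n = 107), and exceeded Prevotella in 92 of the 107 day 0 libraries. Of 15 comparisons of an antibiotic group with PBS mice of its route at day 0, 0 passed an exact two-sided permutation test after Benjamini-Hochberg adjustment, and 2 passed it unadjusted. Mice later given oral vancomycin started at 21.4%, against 34.9% in mice later given oral PBS (exact permutation p = 0.0108, adjusted p = 0.162, n = 6 each). Mice later given intravenous metronidazole started at 33.8%, against 22.9% in those later given intravenous PBS (exact permutation p = 0.0303, adjusted p = 0.227, n = 6 each).

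At day 4 Prevotella was nearly gone after oral vancomycin and low after most other vancomycin and ampicillin treatments, and it stayed a leading genus after metronidazole. It ranked first among genera in 0 of 18 vancomycin, 0 of 12 ampicillin, 1 of 13 mix, 4 of 14 neomycin and 16 of 18 metronidazole libraries, against 7 of 16 PBS libraries. In a limma fit over 95 genera, on log2(percent + 0.01), Prevotella was called lower than in PBS mice of the same route in 7 of 15 comparisons and higher in 0, at an adjusted p under 0.05, with the same 7 and 0 at an unadjusted p under 0.05. These 7 were the 3 routes of vancomycin, the 3 routes of ampicillin and the oral mix. With a centred log ratio, which sets each genus against the mean of all, 2 of the 7 calls were kept, oral vancomycin (-5.51) and intravenous vancomycin (-2.93), and 5 were lost. Log2 changes below are on the log2(percent + 0.01) scale unless a centred log ratio is named. They are antibiotic minus PBS, and understate the change where a level is near 0.

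**Figure D1:**
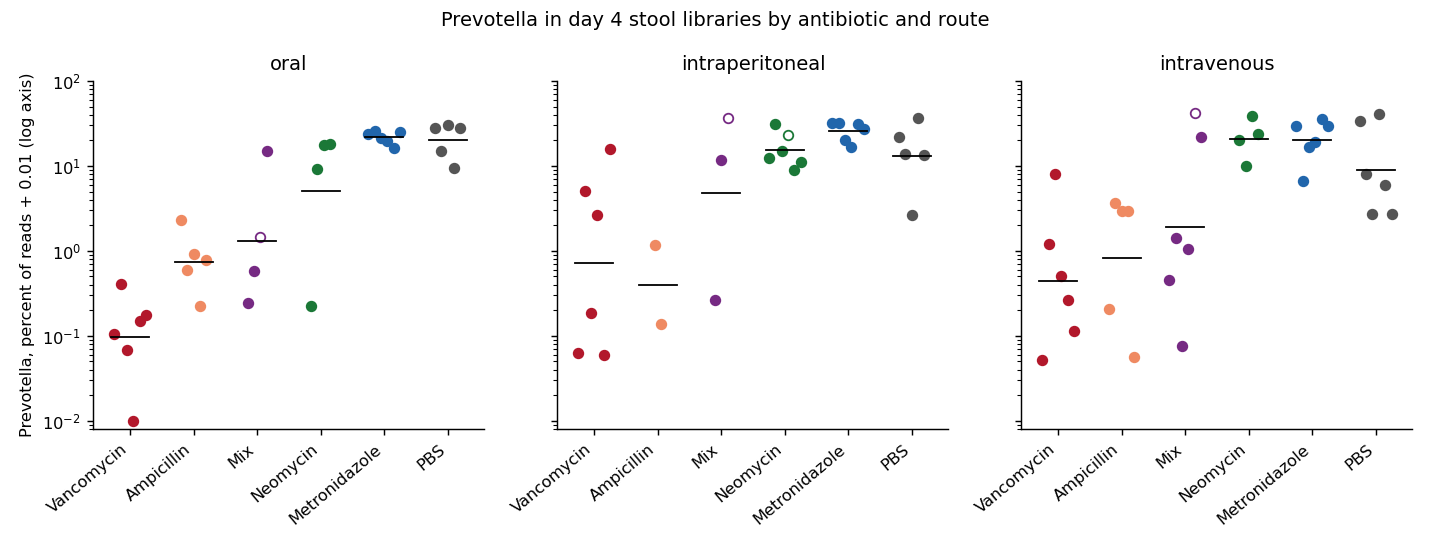
Prevotella at day 4 as percent of reads (log axis after adding 0.01 percent), 1 point per library, by antibiotic and route with PBS at the right of each panel. Open points are libraries under 1000 reads and black bars are geometric means of percent plus 0.01. All oral vancomycin libraries lie at 0.401% or less, against 9.54% or more in oral PBS mice.

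Oral vancomycin left Prevotella between 0% and 0.401% of reads (median 0.118%, 6 mice). The 5 oral PBS mice had 28.2%, 15%, 30.3%, 9.54% and 28.3%. All 6 vancomycin mice lay below every PBS mouse, and the groups did not overlap, as for 41.1% of the genera tested. The vancomycin library at 0% had 0 of 1151 reads, which allows a share of up to 0.261%, for counting error only. The means were 0.144% ± 0.139 after vancomycin and 22.3% ± 9.37 after PBS (SD), a log2 change of -7.72 (SE 1.26, limma adjusted p = 5.41e-07). In this comparison 58.9% of the 95 genera tested were called lower and 7.37% higher, and the median log2 change over all of them was -1.96. Prevotella ranked the fifth from the lowest among these changes. Without the library at 0% the log2 change was -7.07. The exact two-sided permutation test of the mean percent also passed after adjustment over the 15 comparisons (p = 0.00216, adjusted p = 0.0325). The leading genera in its absence were Escherichia_710834, a facultative Gram-negative bacterium, at 49.0% ± 15.2, and Borkfalkia, of the class Clostridia, at 28.9% ± 14.5 of reads (SD, n = 6).

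Intraperitoneal vancomycin gave a wide spread. Prevotella stood at 0.0511% (the pair counted as 1 sample), 5.08%, 0.178%, 2.61% and 15.8% in 5 samples, against 21.9%, 14.0%, 2.63%, 37.1% and 13.3% in 5 intraperitoneal PBS mice. Of the vancomycin samples 3 lay below every PBS mouse, and the groups overlapped. The means were 4.73% ± 6.5 and 17.8% ± 12.8 (SD), a log2 change of -3.47 (SE 1.32, limma adjusted p = 0.0419), where 22.1% of genera were called lower and 3.16% higher. The exact permutation test did not pass (p = 0.0714, adjusted p = 0.214), and with each mouse set against its own day 0 library the limma adjusted p was 0.209. The day 0 library of vancomycin replicate 3 had 2 reads, and those of replicates 2, 5 and 6 had 357, 230 and 270. Leaving out any 1 of PBS replicates 1, 2, 4 and 5, the pair, or vancomycin replicate 3 also ended the call, with log2 changes of -4.40 to -2.40 over all samples left out in turn.

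Intravenous vancomycin left Prevotella at 0.0424% to 8.04% (median 0.379%, 6 mice), against 2.69% to 41.2% (median 7.0%) in 6 intravenous PBS mice. Of the vancomycin mice 5 lay below every PBS mouse, and the mouse at 8.04% lay within the PBS range. The means were 1.69% ± 3.14 and 15.8% ± 17.2 (SD), a log2 change of -4.32 (SE 1.20, limma adjusted p = 0.00240), where 37.9% of genera were called lower and 4.21% higher. The exact permutation test gave p = 0.0238 (adjusted p = 0.119), and the log2 change was -3.70 without vancomycin replicate 1 and -5.15 without replicate 3. Both runs held 3 vancomycin and 3 PBS mice of this route. In run SB1 vancomycin mice had 0.104% to 0.500% and PBS mice 2.73% to 41.2%, a log2 difference of -5.13 (exact permutation p = 0.1, the smallest that 3 against 3 allows). In run ok122 they had 0.0424% to 8.04% and 2.69% to 34.0%, a log2 difference of -3.51 (exact permutation p = 0.2, limma adjusted p = 0.143). With the run as a block in the fit the log2 change was -4.32 (limma adjusted p = 0.00247).

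After oral ampicillin Prevotella was low in every mouse. The oral ampicillin mice had 2.27%, 0.591%, 0.898%, 0.213% and 0.775%, all below the lowest oral PBS mouse at 9.54%, as for 33.7% of the genera tested. The mean was 0.950% ± 0.783 against 22.3% ± 9.37 in oral PBS mice (SD, n = 5 each), a log2 change of -4.79 (SE 1.32, limma adjusted p = 0.00200), where 49.5% of genera were called lower and 6.32% higher. The exact permutation test gave p = 0.00794, the smallest that 5 against 5 allows (adjusted p = 0.0595). Borkfalkia at 39.8% ± 37.5 and Burkholderia at 37.2% ± 50.8 of reads led these libraries (SD, n = 5). Burkholderia belongs to a list of genera often traced to reagents, skin or food. Their summed share was 96.6% in oral ampicillin replicate 5 and 89.0% in replicate 3, against at most 0.143% in oral PBS libraries. Without these genera in the totals the log2 change was -3.18 (limma adjusted p = 0.0464). With the centred log ratio it was -2.94 and the call was lost (limma adjusted p = 0.0675). Replicates 4 and 5, at 0.213% and 0.775%, are of run SB1, while all oral PBS libraries are of run ok122. In run ok122 the 3 ampicillin mice differed from the 5 oral PBS mice by a log2 difference of -4.24 (exact permutation p = 0.0179, the smallest that 3 against 5 allows).

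After intraperitoneal ampicillin only 2 libraries were at hand, with Prevotella at 1.16% and 0.128%. Both lay below the lowest of the 5 intraperitoneal PBS mice at 2.63%, as for 40% of the genera tested. The log2 change was -5.04 (SE 1.74, limma adjusted p = 0.0180), where 43.2% of genera were called lower and 7.37% higher, and the exact permutation test gave p = 0.190 (adjusted p = 0.317). The call was lost in run ok122 alone, which leaves out replicate 2 (log2 change -3.50, limma adjusted p = 0.255), and with each mouse set against its own day 0 library (limma adjusted p = 0.0565). Borkfalkia led with 55.7% ± 48 of reads and CAG-314 followed with 13.0% ± 18.3 (SD, n = 2).

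After intravenous ampicillin Prevotella was lower while the other tested genera of its family in the table were higher. Prevotella stood at 0.199%, 3.62%, 0.0470% and, in the pair counted as 1 sample, 2.97% and 2.92%, against 2.69% to 41.2% (median 7.0%) in 6 intravenous PBS mice. Of the 4 ampicillin samples 2 lay below every PBS mouse. The means were 1.70% ± 1.85 and 15.8% ± 17.2 (SD), a log2 change of -3.90 (SE 1.35, limma adjusted p = 0.0135), where 36.8% of genera were called lower and 5.26% higher. The exact permutation test gave p = 0.162 (adjusted p = 0.317), and leaving out ampicillin replicate 1 or replicate 5 ended the limma call (log2 changes of -4.76 to -2.77 over samples left out in turn). The call was also lost with the centred log ratio (-2.23, limma adjusted p = 0.189). Bacteroides_H, a genus of the same family in this table, averaged 21.0% ± 15.8 after ampicillin and 0.411% ± 0.417 after PBS (log2 change 4.68, SE 1.46, limma adjusted p = 0.00615). Phocaeicola_A_858004, also of that family, averaged 12.8% ± 18.2 and 0.0292% ± 0.0288 (SD; log2 change 5.89, SE 1.68, limma adjusted p = 0.00282). Both are Gram-negative polysaccharide degraders of the gut.

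After the mix some mice had almost no Prevotella and others had levels within the PBS range. Oral mix libraries held 0.233%, 0.574%, 14.8% and, in a library of 556 reads, 1.44%, against 9.54% to 30.3% in the 5 oral PBS mice. Of the 4, 3 lay below every PBS mouse. The means were 4.26% ± 7.05 and 22.3% ± 9.37 (SD), a log2 change of -3.94 (SE 1.40, limma adjusted p = 0.0240), where 35.8% of genera were called lower and 1.05% higher, and the exact permutation test gave p = 0.0317 (adjusted p = 0.119). Burkholderia made up 91.9%, 96.0% and 37.8% of the 3 low libraries and 0.0903% of the library with 14.8% Prevotella. Without the reagent, skin and food genera in the totals the log2 change was -1.34 (limma adjusted p = 0.518), which ended the call. Leaving out replicate 1, or the replicate 2 of run SB1, also ended it (log2 changes of -5.11 to -3.13). The oral mix libraries at 0.574% and 14.8% are of run SB1, while all oral PBS libraries are of run ok122. In run ok122 the log2 difference of 2 mix from 5 PBS libraries was -5.10 (exact permutation p = 0.0476, the smallest that 2 against 5 allows).

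By the other routes the mix gave no call. Intraperitoneal mix libraries held 0.253%, 11.9% and, in a library of 30 reads, 36.7% (exact binomial 95% interval 19.9% to 56.1%), against 2.63% to 37.1% in PBS mice. The log2 change was -1.44 (95% interval -4.47 to 1.58, limma adjusted p = 0.470, 29.5% of genera called lower and 0% higher). Intravenous mix libraries held 0.0659% to 41.5% (median 1.22%, 6 mice), against 2.69% to 41.2% in PBS mice, with 4 of the 6 below every PBS mouse and 1 above. The log2 change was -2.23 (95% interval -4.62 to 0.16, limma adjusted p = 0.109, 37.9% of genera called lower and 5.26% higher). The library at 41.5% had 65 reads, 27 of them Prevotella and 16 of these from Prevotella histicola; Streptococcus made up 44.6% of it and no Muribaculaceae read was seen. Over libraries of at least 1000 reads the intravenous mix passed the test (log2 change -3.12, limma adjusted p = 0.0267). Leaving out replicate 6, at 21.8%, also gave a call, so this result rests on which of 2 libraries is kept.

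Neomycin and metronidazole gave no call by any route. Oral neomycin mice had 0.213%, 9.19%, 17.6% and 18.3%, against 9.54% to 30.3% in oral PBS mice (log2 change -2.0, 95% interval -4.79 to 0.78, limma adjusted p = 0.294, 16.8% of genera called lower and 6.32% higher). Without the mouse at 0.213% the log2 change was -0.50 (limma adjusted p = 0.870), and 2 of the 4 lay below every PBS mouse. Intraperitoneal neomycin mice had 8.88% to 31.5% (median 13.7%, n = 6), within the 2.63% to 37.1% of PBS mice (log2 change 0.22, 95% interval -2.29 to 2.73, limma adjusted p = 0.998, 0% of genera called lower and 0% higher). Replicate 4 of that neomycin group, at 22.9%, was a library of 70 reads. Intravenous neomycin mice had 20%, 10%, 38.5% and 23.8%, against 2.69% to 41.2% in PBS mice (log2 change 1.22, 95% interval -1.46 to 3.90, limma adjusted p = 0.852, 1.05% of genera called lower and 0% higher). Intervals of this width do not show that levels were alike.

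Metronidazole mice held 6.68% to 36.1% Prevotella at day 4 over 18 samples (mean 23.9% ± 7.40, SD). By mouth they had 16.2% to 26.1% (median 22.8%, n = 6), against 9.54% to 30.3% in oral PBS mice (log2 change 0.10, 95% interval -2.41 to 2.62, limma adjusted p = 0.998, 2.11% of genera called lower and 2.11% higher). Into the peritoneum they had 16.7% to 32% (median 29.3%, n = 6), against 2.63% to 37.1% in PBS mice (log2 change 0.97, 95% interval -1.54 to 3.48, limma adjusted p = 0.918, 0% of genera called lower and 2.11% higher). Into a vein they had 6.68% to 36.1% (median 24.1%, n = 6), against 2.69% to 41.2% in PBS mice (log2 change 1.18, 95% interval -1.21 to 3.57, limma adjusted p = 0.915, 2.11% of genera called lower and 0% higher). In each route the metronidazole and PBS mice overlapped.

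**Figure D2:**
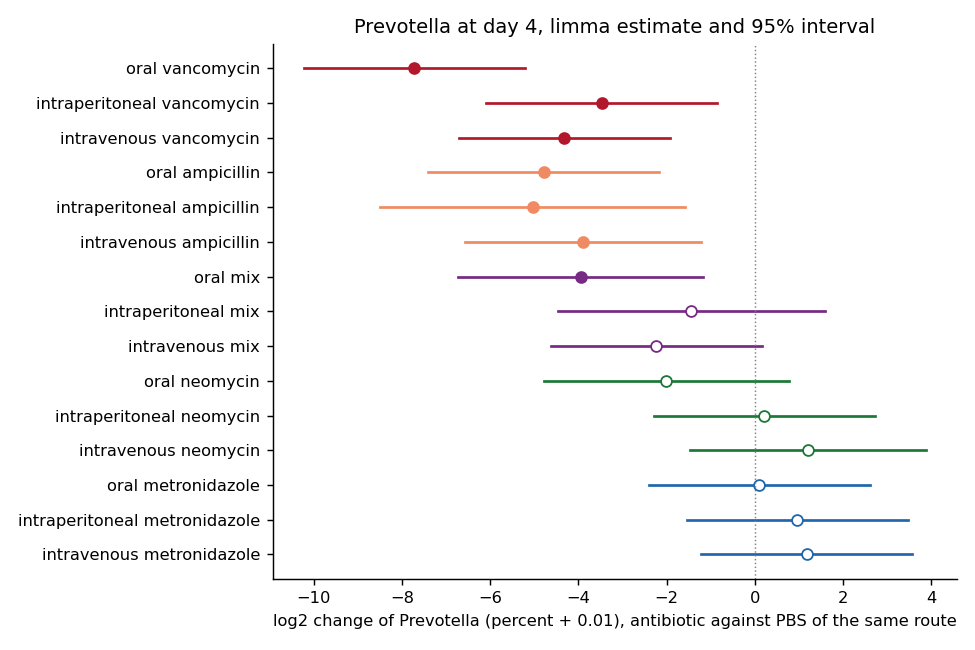
Log2 change of Prevotella at day 4 on the log2(percent + 0.01) scale, antibiotic minus PBS of the same route, with 95% intervals from the limma fit. Filled points passed an adjusted p under 0.05; the 7 calls are the vancomycin and ampicillin comparisons and the oral mix, all below 0.

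The effect was also compared between routes, as the change by 1 route less the change by another within the limma fit. Of 15 such differences 0 passed the adjusted p over genera and 1 passed unadjusted. For vancomycin the oral change was lower than the intraperitoneal one by a log2 difference of -4.25 (SE 1.83, limma adjusted p = 0.0981). The oral less intravenous difference for vancomycin was -3.40 (95% interval -6.87 to 0.07, limma adjusted p = 0.305). Of the 95 genera 12.6% and 9.47% were called in these comparisons of routes. For ampicillin the oral less intravenous difference was -0.89 (95% interval -4.64 to 2.86, limma adjusted p = 0.996, 7.37% of genera called). Over the other route differences 0%, 1.05%, 4.21% or 12.6% of genera were called, the last for oral less intravenous neomycin, where the Prevotella difference was -3.22 (95% interval -7.08 to 0.64, limma adjusted p = 0.204).

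Muribaculaceae genera were often called lower together with Prevotella. Of 8 tested, 8 were called lower after oral vancomycin (58.9% of all genera), 2 after intraperitoneal (22.1%) and 7 after intravenous vancomycin (37.9%). For ampicillin the counts were 8 by mouth (49.5% of all genera), 8 into the peritoneum (43.2%) and 3 into a vein (36.8%). For the mix they were 7 (35.8%), 6 (29.5%) and 7 (37.9%) in the same order. The share of Muribaculaceae called lower after intraperitoneal vancomycin and after intravenous ampicillin was thus near that of all genera. Neomycin and metronidazole gave 0 by every route, by limma at an adjusted p under 0.05, and 2 for oral neomycin and 0 elsewhere at an unadjusted p under 0.05. After oral vancomycin the Muribaculaceae genera ranged in log2 change from -8.51 (CAG-485) to -7.39 (UBA7173), with Prevotella at -7.72 among them. After intravenous ampicillin they ranged from -5.84 (UBA3263) to 1.49 (UBA7173), with Prevotella at -3.90.

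The ratio of Prevotella to Muribaculaceae within a library was therefore set against that of PBS mice. Of 15 comparisons 0 passed the exact permutation test of the mean log2 ratio, adjusted or unadjusted, and 4 of the 15 differences were below 0. The intravenous mix difference was 2.28, and -0.26 without its library of 65 reads. That library had no Muribaculaceae read, so its log2 ratio of 12.02 depends on the added 0.01 percent. After oral vancomycin the log2 ratio averaged -1.03 ± 0.80 (n = 6), against -1.55 ± 0.88 (n = 5) in oral PBS mice (SD; difference 0.52, exact permutation p = 0.322, adjusted p = 0.556). In 1 of these vancomycin libraries neither taxon had a read, so that its log2 ratio of 0 comes from the added 0.01 percent. The other 5 averaged -1.24 ± 0.70 (SD), a difference of 0.31 (exact permutation adjusted p = 0.730). After oral ampicillin it was -0.98 ± 0.69, against -1.55 ± 0.88 (SD, n = 5 each; difference 0.58, exact permutation p = 0.262, adjusted p = 0.556). In both comparisons the ratios of the 2 groups overlapped, while the genus itself was called lower.

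The lowest mean ratio followed intravenous ampicillin. There Prevotella was between 0.000582 and 0.0679 of the Muribaculaceae share, against 0.0304 to 0.901 in intravenous PBS mice. The log2 ratio averaged -6.16 ± 3.04 (n = 4) and -2.96 ± 2.13 (n = 6), a difference of -3.19 (SD; exact permutation p = 0.0857, adjusted p = 0.556). Muribaculaceae held 14.4% to 80.8% of reads in these ampicillin samples and 45.7% to 90.1% in the PBS mice, and the sample with 0.0470% Prevotella was the one with 80.8% Muribaculaceae. In intraperitoneal metronidazole mice the log2 ratio was -0.93 ± 0.79 (n = 6), against -2.30 ± 1.55 (n = 5) in PBS mice (SD; difference 1.36, exact permutation p = 0.0823, adjusted p = 0.556).

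**Figure D3:**
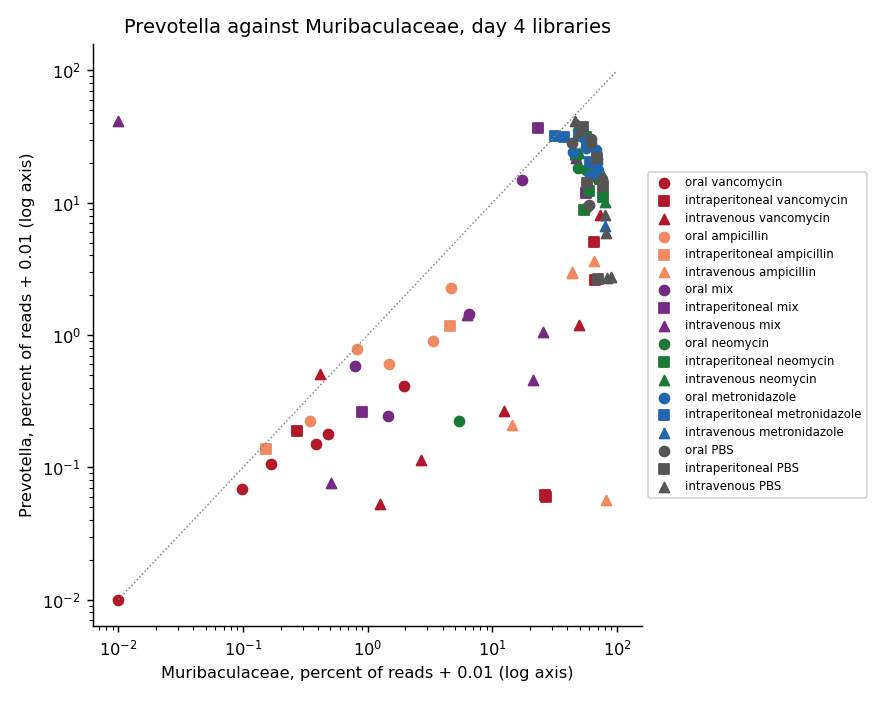
Prevotella against Muribaculaceae at day 4, both as percent of reads plus 0.01 on log axes, 1 point per library, with colour for the antibiotic, shape for the route and a dotted line at equal shares. Oral vancomycin libraries lie low on both axes, and 2 intravenous ampicillin samples lie at or below 0.199% Prevotella beside 14.4% and 80.8% Muribaculaceae.

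Mice with stool of both days allow each to be set against its own start. In 87 samples from 89 mice, the change within mice was compared with that of PBS mice of the same route by an exact two-sided permutation test. Of 15 comparisons 3 passed after adjustment and 6 unadjusted. After oral vancomycin all 6 mice were lower at day 4, with means of 0.144% at day 4 and 21.4% at day 0, and the log2 change differed from that of PBS mice by -6.86 (exact permutation adjusted p = 0.0325). After intravenous vancomycin all 6 mice were lower, with means of 1.69% and 25.3% (difference -4.41, exact permutation adjusted p = 0.0433). After oral ampicillin all 5 mice were lower, with means of 0.950% and 25.8% (difference -3.94, exact permutation adjusted p = 0.0433). Among PBS mice 5 of 5 by mouth, 4 of 5 into the peritoneum and 4 of 6 into a vein were lower at day 4 as well. These calls rest on few mice. Leaving out any 1 of the 5 oral PBS mice ended the oral vancomycin call (adjusted exact permutation p = 0.0649) and the oral ampicillin call (0.0714). All 6 oral vancomycin changes lay below every oral PBS change. However, 6 against 4 mice allow no exact permutation p under 0.00476 before adjustment, so the number of mice limits this result. Leaving out 1 sample ended the intravenous vancomycin call in 9 of 12 cases, namely PBS replicates 1, 2, 4 and 5 and vancomycin replicates 1, 2, 4, 5 and 6 (adjusted exact permutation p up to 0.0670). Intravenous ampicillin gained a call without ampicillin replicate 2 (0.0446) and intraperitoneal metronidazole without PBS replicate 4 (0.0476). All 5 intraperitoneal vancomycin and all 4 intravenous ampicillin samples were also lower than at day 0, but their differences from PBS gave adjusted exact permutation p of 0.164 and 0.0571. The day 0 level of intraperitoneal vancomycin replicate 3, 50%, came from a library of 2 reads. Of the day 0 libraries used, 23 had under 1000 reads. Without them the 3 differences were -7.46, -3.64 and -3.46, with adjusted exact permutation p of 0.198, 0.198 and 0.214. Fewer mice were left there, which raises the smallest p that an exact test allows. These p therefore cannot be set against those of all mice.

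**Figure D4:**
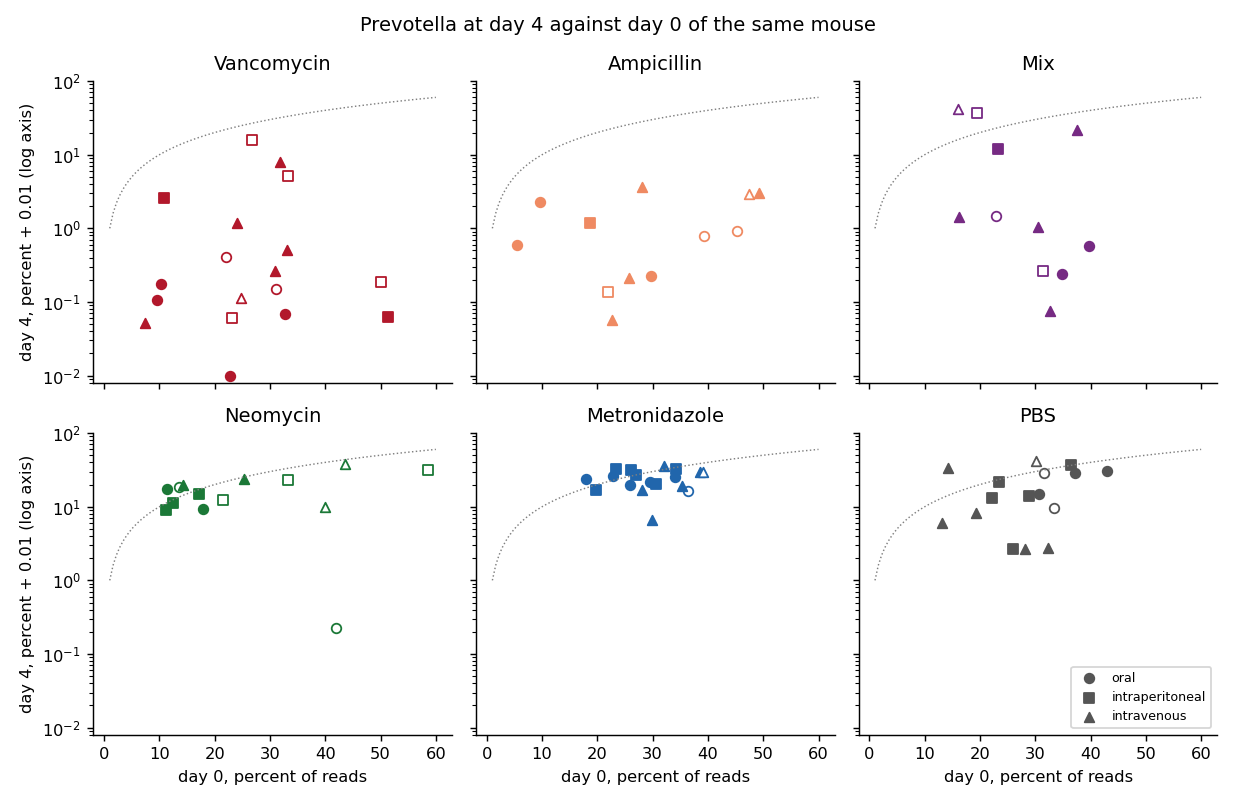
Prevotella percent of reads at day 4 (plus 0.01, log axis) against day 0 of the same mouse (linear axis), 1 panel per antibiotic with PBS last; shapes are routes, open points have under 1000 reads on either day and the dotted curve marks equal shares. All 6 oral vancomycin mice lie far below the curve, and 13 of 16 PBS mice lie below it.

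PBS mice themselves held less Prevotella at day 4. The share averaged 18.4% ± 13.2 at day 4 and 28.1% ± 8.17 at day 0 (SD, 16 mice), a change of -9.68 ± 13.2 percentage points, lower in 13 of 16 mice (exact sign-flip permutation p = 0.0121). In the 13 PBS mice with at least 1000 reads on both days the change was -10.7 (exact sign-flip permutation p = 0.0127). The log2 ratio to Muribaculaceae also fell, by 1.31 on average (exact sign-flip permutation p = 0.00391, 16 mice). Day and sequencing run overlap in part, since 3 of the intravenous PBS libraries at day 4 are of run SB1 while all day 0 libraries are of ok122, and the part of the run in this change was not tested. By route the mean change was -12.9 ± 7.66 by mouth (n = 5), -9.56 ± 9.80 into the peritoneum (n = 5) and -7.11 ± 19.6 into a vein (SD, n = 6).

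The row sp902776665 made up nearly all of the genus in most libraries, so its changes are no separate evidence. On its own it followed the genus. In a limma fit over 133 rows of the table its log2 change was -7.74 after oral, -3.45 after intraperitoneal and -5.18 after intravenous vancomycin, with adjusted p of 6.53e-07, 0.0507 and 0.000392, where 60.2%, 21.8% and 45.9% of rows were called lower. After ampicillin its log2 change was -5.31 by mouth (limma adjusted p = 0.000782), -5.84 into the peritoneum (limma adjusted p = 0.00871) and -3.86 into a vein (limma adjusted p = 0.0197), where 51.9%, 32.3% and 36.1% of rows were called lower. Here the intraperitoneal vancomycin change missed the threshold that the genus sum passed.

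In run SB1 the other main row, sp004792655, did not follow the same order. It held 0.380%, 0.197% and 0.0735% of reads after intravenous vancomycin, against 0.425%, 0.130% and 0.304% in intravenous PBS mice, and these ranges overlapped. The row sp902776665 held 0.120%, 0.0606% and 0.0302% in the same vancomycin libraries, against 40.8%, 5.79% and 2.43% in the PBS libraries. The ratio of sp004792655 to sp902776665 was thus 2.43 to 3.25 after vancomycin and 0.0104 to 0.125 after PBS. In the 3 ampicillin libraries of that run the ratio was 1.48 to 1.78. In the oral mix libraries it was 0.667 and 0.0143, and in the intraperitoneal mix library of 30 reads sp004792655 reached 26.7%. With 3 samples a group an exact permutation test cannot go below 0.1, so no test of this ratio was made.

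**Figure D5:**
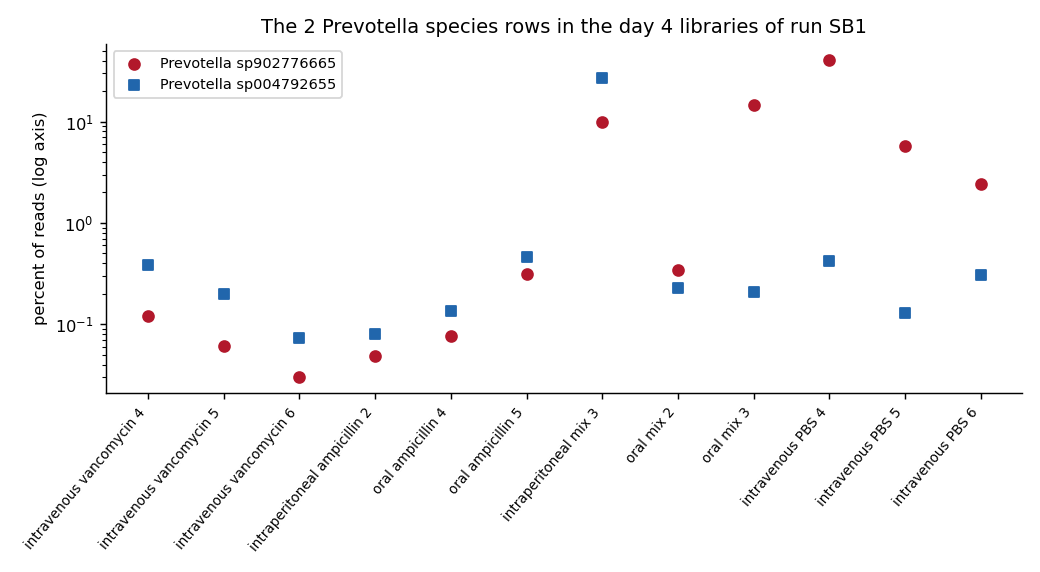
Percent of reads of sp902776665 and sp004792655 in the 12 day 4 libraries of run SB1 (log axis), 1 position per library in antibiotic groups with PBS last; labels give route, antibiotic and replicate, and intraperitoneal mix 3 is the library of 30 reads. Apart from that library sp004792655 stays between 0.0735% and 0.462%, while sp902776665 spans 0.0302% to 40.8%.

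A set of 6 Prevotella species known from the human mouth or small intestine was seen at day 4 and not at day 0. Prevotella copri was not counted in this set. The 6 rows (histicola, melaninogenica, salivae, oris and pallens, known from the mouth, and jejuni, first isolated from the small intestine) were above 0 in 21 of 79 day 4 libraries of run ok122 and in 0 of 107 day 0 libraries. By treatment they were seen in 1 of 15 vancomycin, 1 of 9 ampicillin, 7 of 10 mix, 6 of 14 neomycin and 0 of 18 metronidazole libraries of that run, against 6 of 13 PBS libraries. In run SB1 the cells of all these rows but melaninogenica were empty. In the 19 such libraries of at least 1000 reads they made up 0.00907% to 0.169% of reads, or 2 to 39 reads. In the libraries of 65 and 70 reads they made up 24.6% and 10% of all reads. There sp902776665 held 11 of 27 and 9 of 16 Prevotella reads. Day 0 libraries were shallower, and the part of depth in this difference was not tested.

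Genera most like Prevotella over the 89 day 4 samples were ranked by Spearman's rho of log2(percent + 0.01), as a description. The 5 highest were unclassified CAG-508 (0.67), unclassified Dehalobacteriaceae (0.64), Eubacterium_R (0.63), UBA3263 (0.62), which is of Muribaculaceae, and Odoribacter_865974 (0.60). The 3 lowest were Escherichia_710834 (-0.52), Borkfalkia (-0.41) and Parasutterella (-0.40). The samples share treatment groups and a fixed total per library, so these values follow the treatments. The 8 Muribaculaceae genera had rho of 0.27 to 0.62 over day 4 samples, of -0.68 to -0.01 over the 16 PBS samples and of -0.34 to -0.06 over the 83 deeper day 0 libraries.

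The table places Prevotella in Bacteroidaceae, and 2 other genera of that family were tested. After oral vancomycin Bacteroides_H was lower as well, at 0.0130% ± 0.0318 against 0.553% ± 0.20 in oral PBS mice (SD; log2 change -5.22, limma adjusted p = 0.000675). After intravenous vancomycin it was higher, at 17.0% ± 15.5 against 0.411% ± 0.417 in PBS mice (SD; log2 change 5.30, limma adjusted p = 0.000600), where Prevotella was lower. After oral neomycin Bacteroides_H averaged 15% ± 15.5 against 0.553% ± 0.20 (SD; log2 change 4.31, limma adjusted p = 0.0298), and Phocaeicola_A_858004 was higher as well (log2 change 5.16, limma adjusted p = 0.0260). In the remaining comparisons, apart from intravenous ampicillin above, neither genus passed the test.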

How the data were processed

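Stool DNA was amplified over the V4 region of the 16S rRNA gene with 30 to 35 PCR cycles and read on an Illumina MiSeq sequencer (per the labels' protocols). For read filtering, clustering and taxonomy, tools and databases were not given in the sources. The authors deposited a composition table of signal values scaled to 100000 per library over 488 taxa, and 2 sample sheets that give antibiotic, route, day and replicate, columns of no numeric unit. Empty cells (11.6%) were read as 0. The values are whole multiples of a step in each library (within 0.02 reads), which gives a depth that is a lower limit, since in 183 of 198 libraries the lowest value equals 2 reads. The table holds no counts and no count model was fitted. Intervals and limits on a 0 (3 reads) cover counting error only, as amplified reads are no independent molecules.

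Percent of reads was summed by genus over all 316 genera. Genera in at least 20% of day 4 samples (95) were tested with limma 3.58.1 in R 4.3.3 (lmFit, eBayes with trend) on log2(percent + 0.01), with 1 mean per antibiotic and route and Benjamini-Hochberg adjustment over genera at 0.05. Single values had exact two-sided permutation tests (Python 3.11.15, scipy 1.17.1), adjusted over 15 comparisons. Simulated data were normal noise with the spread of the fit around each genus mean over all day 4 samples (95 genera). In the oral vancomycin samples 10 genera each were shifted up or down by 2, 4 and 6 log2 units. Of these 49.0%, 90.0% and 100% were called, and 1.4% of unshifted ones. Real changes were mostly downward, some levels were near 0 and some groups were smaller, so these rates need not hold there.

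Named genera are all Prevotella rows, Muribaculaceae and its genera, other tested Bacteroidaceae, the 5 most and 3 least like Prevotella by Spearman's rho, and leading genera where Prevotella averaged under 1%. The members and lists were chosen with earlier results of these data known, and the list of 6 species known from the human mouth or small intestine after their values were seen. Replicate numbers do not pair mice between groups; days were paired by the mouse in the sample name, for 89 of 90 mice, and 1 whose route differed between days was left out there. Of the oral mix, 2 day 4 libraries carry replicate number 2, and are named by run. Alternatives were another pseudocount (0.1), other filters, a centred log ratio, a run block, 1 run alone, libraries of at least 1000 reads, leaving out reagent genera, and each sample left out in turn.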

Additional observations from a re-analysis of the deposited data

Results flagged for a closer look

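Of 50 groups tested for 1 sample far from the others, 4 were picked out, where chance gives about 1 in 20. Oral mix replicate 3 held 14.8% Prevotella at day 4, against 1.44% in the nearest of its group. Intravenous vancomycin replicate 3 held 8.04%, against 1.19% in the nearest. Intravenous vancomycin replicate 1 held 7.34% at day 0, against 24.0% in the nearest. The log2 ratio of Prevotella to Muribaculaceae was 12.02 in intravenous mix replicate 5, a library of 65 reads with no Muribaculaceae read, against -1.10 in the nearest.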

How the results depend on the processing

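The oral vancomycin change in day 4 percent kept its call in every alternative run for it, between -8.14 and -7.07 with 1 sample left out. With the centred log ratio, which sets a genus against the mean of all, the adjusted p was lost for intraperitoneal vancomycin (-2.50), oral ampicillin (-2.94), intraperitoneal (-3.17) and intravenous ampicillin (-2.23) and the oral mix (-2.30), and the intraperitoneal mix turned to 0.17. The exact test of the mean percent, in percentage points, did not pass for intraperitoneal (-13.1) and intravenous vancomycin (-14.1), oral (-21.3), intraperitoneal (-17.2) and intravenous ampicillin (-14.1) and the oral mix (-18.0), and was below 0 for intraperitoneal neomycin (-0.823) and oral metronidazole (-0.153).

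Intraperitoneal vancomycin was also lost with no filter on rare genera (-3.47, adjusted p 0.0838), only the 2 groups in the fit (-3.47, 0.154) and without reagent genera (-3.47, 0.0512). It was lost as well with the mouse baseline, the day 0 log2 value of each mouse, subtracted (-3.51, 0.209). Intraperitoneal ampicillin was lost with that baseline subtracted (-4.62, 0.0565) and in run ok122 alone (-3.50), as was intravenous vancomycin in that run (-3.51). With the mouse baseline subtracted the other 5 of the 7 calls were kept. The oral mix was lost without reagent genera (-1.34), and the intravenous mix gained a call with at least 1000 reads (-3.12). In ok122 alone the row sp902776665 passed for intraperitoneal vancomycin (-3.45, adjusted p 0.0477) and not for intravenous vancomycin (-3.50) or intraperitoneal ampicillin (-3.89), and the oral mix log2 ratio turned to -0.82. With at least 1000 reads the intravenous mix log2 ratio turned to -0.26. Within mice the 3 calls were then lost (oral vancomycin -7.46, intravenous vancomycin -3.64, oral ampicillin -3.46), in fewer mice, where the exact test allows only larger p. The within-mouse differences of intraperitoneal mix (0.0544) and oral neomycin (0.48) turned.

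With 1 sample left out in turn, the percent changes ranged over -4.40 to -2.40 (intraperitoneal vancomycin), -6.58 to -3.50 (intraperitoneal ampicillin), -4.76 to -2.77 (intravenous ampicillin), -5.11 to -3.13 (oral mix, -3.55 without replicate 2 of run SB1), -2.90 to 0.66 (intraperitoneal mix), -3.12 to -1.30 (intravenous mix), -0.36 to 0.59 (intraperitoneal neomycin) and -0.17 to 0.25 (oral metronidazole). Ratio differences ranged over -0.28 to 0.77 (intraperitoneal neomycin), -0.26 to 3.25 (intravenous mix), -0.19 to 0.32 (oral metronidazole) and -0.17 to 0.62 (oral mix, -0.0983 without replicate 2 of run SB1). Within-mouse differences ranged over -7.24 to -6.16 (oral vancomycin), -5.15 to -3.90 (intravenous vancomycin), -4.60 to -3.36 (oral ampicillin), -5.26 to -3.37 (intravenous ampicillin), 0.43 to 1.26 (intraperitoneal metronidazole), -2.91 to 0.999 (intraperitoneal mix), -0.0264 to 0.80 (intraperitoneal neomycin) and -1.92 to 0.81 (oral neomycin). The cause was not tested where none is named. Of the other settings 298 results kept direction and side of the threshold, as did 408 with a sample left out. Groups of 2 to 6 mice and libraries of 30 to 70 reads limit what these tests can show.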

Other observations

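Some day 4 samples held under 5% Prevotella beside over 25% Muribaculaceae, a pattern chosen after the values were seen. They were 3 of 4 intravenous ampicillin, 2 of 5 intraperitoneal vancomycin, 1 of 6 intravenous vancomycin and 1 of 6 intravenous mix samples, against 1 of 5 intraperitoneal and 2 of 6 intravenous PBS samples. Intraperitoneal vancomycin replicates 2, 4 and 6 held 65.1%, 66.8% and 71.3% Muribaculaceae with 5.08%, 2.61% and 15.8% Prevotella, and UBA7173 led each of these libraries. Replicates 1 and 5 of that group, the pair counted as 1 sample, held 26.5% and 26.7% Muribaculaceae and were led by Akkermansia, and replicate 3 held 0.261% and was led by Parabacteroides_B_862066.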
